A study of Arabidopsis thaliana with 4 samples.

Results

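The nuclear genes for the light-harvesting antenna and the photosystems were examined in seedlings of Arabidopsis thaliana exposed to the volatiles of a bacterium. The set holds 45 of the 29030 loci on the array. They encode the antenna proteins LHCA and LHCB, subunits of photosystem I (PSA) and photosystem II (PSB), the electron carriers PETE and PETC, and the ATP synthase subunits ATPC1 and ATPD. Members were chosen by function, as the spots whose annotated locus was one of these genes, but with earlier results of these data known. All 45 were represented on the array, by 135 probes, and all of these probes were bright enough to be tested.

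Plants of the ecotype Col-0 were grown on agar in upright square plates, and the exposed plates also held Pseudomonas syringae DC3000 below the plants, so that plants and bacteria shared only the air. Controls came from plates without bacteria. Plants were 8 days old and exposure lasted 12 hours according to the design text, whereas the sample labels give 12 days. Each of 4 two-colour Agilent arrays carried control RNA in the dye Cy3 and exposed RNA in the dye Cy5. The dyes were not swapped on any array, so a dye preference of a transcript and an effect of exposure cannot be told apart. Nothing in the labels says that the 4 RNA pairs came from separate plants, and every p-value here rests on a spread between arrays that may be technical. RNA was taken from plants described without any tissue, and fewer green cells and less RNA per green cell cannot be told apart.

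In plant thylakoids, light is absorbed by chlorophyll bound to antenna proteins. LHCII trimers, built of LHCB1, LHCB2 and LHCB3, and the minor antennae LHCB4 to LHCB6 serve photosystem II, while LHCA1 to LHCA4 serve photosystem I. Electrons drawn from water at the oxygen-evolving complex pass through the cytochrome b6f complex and plastocyanin to photosystem I, and the proton gradient drives ATP synthase. The nuclear genes of these complexes are among the most abundantly transcribed genes of a green leaf, many exist as near-identical copies, and their transcription depends on light and on the state of the plastid.

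Arrays 1 to 3 resembled each other, with correlations of 0.648 to 0.779 between their log2 ratios across genes, and array 4 stood apart, with 0.221 to 0.288. On array 4 the median gene spot read 575.5 scanner units in the control channel and 1286 in the exposed channel, against 292 to 362.5 and 336 to 373 on the others. Repeated spots of 50 probes varied within an array enough to predict a median SD of 0.0506 between arrays, and the SD between arrays 1 to 3 was 0.0469. At the median of these 50 probes, arrays 1 to 3 therefore differed by no more than repeated spots on a single array. Other probes were not compared in this way. Whether the 3 arrays are separate samples is not settled by the labels. The file headers place arrays 1 and 2 on 1 slide and arrays 3 and 4 on another.

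Of the 45 genes, 6 rose and 1 fell in exposed plants at an adjusted p under 0.05 (limma with Benjamini-Hochberg adjustment over 22690 tested genes). That is 15.6% of the members, beside 3.4% of all tested genes, of which 358 rose (1.58%) and 414 fell (1.82%). Since the set was chosen with results known, the difference between these shares is a description. The genes that rose were the plastocyanin gene PETE2, the photosystem II subunit gene PSBR, the LHCII genes LHCB1.3, LHCB1.4 and LHCB1.5, and the oxygen-evolving complex gene PSBO1. The LHCII gene LHCB2.1 fell. The signs of the set were split: 22 genes had a positive and 23 a negative log2 ratio, with a median of -0.0079 beside -0.0046 for all tested genes. The sign was shared by all 4 arrays for 21 members (46.7%), beside 37.9% of all tested genes. Each of the 7 calls was lost when arrays 1 to 3 were averaged to 1 sample, when array 1, 2 or 3 was left out, and when slide was fitted as a fixed block, where the lowest adjusted p of a member was 0.0508. Without array 4, 19 members were called, 10 higher and 9 lower. Calls over all genes rose there too, from 772 to 7054, so a larger count was not particular to the members.

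**Figure D1:**
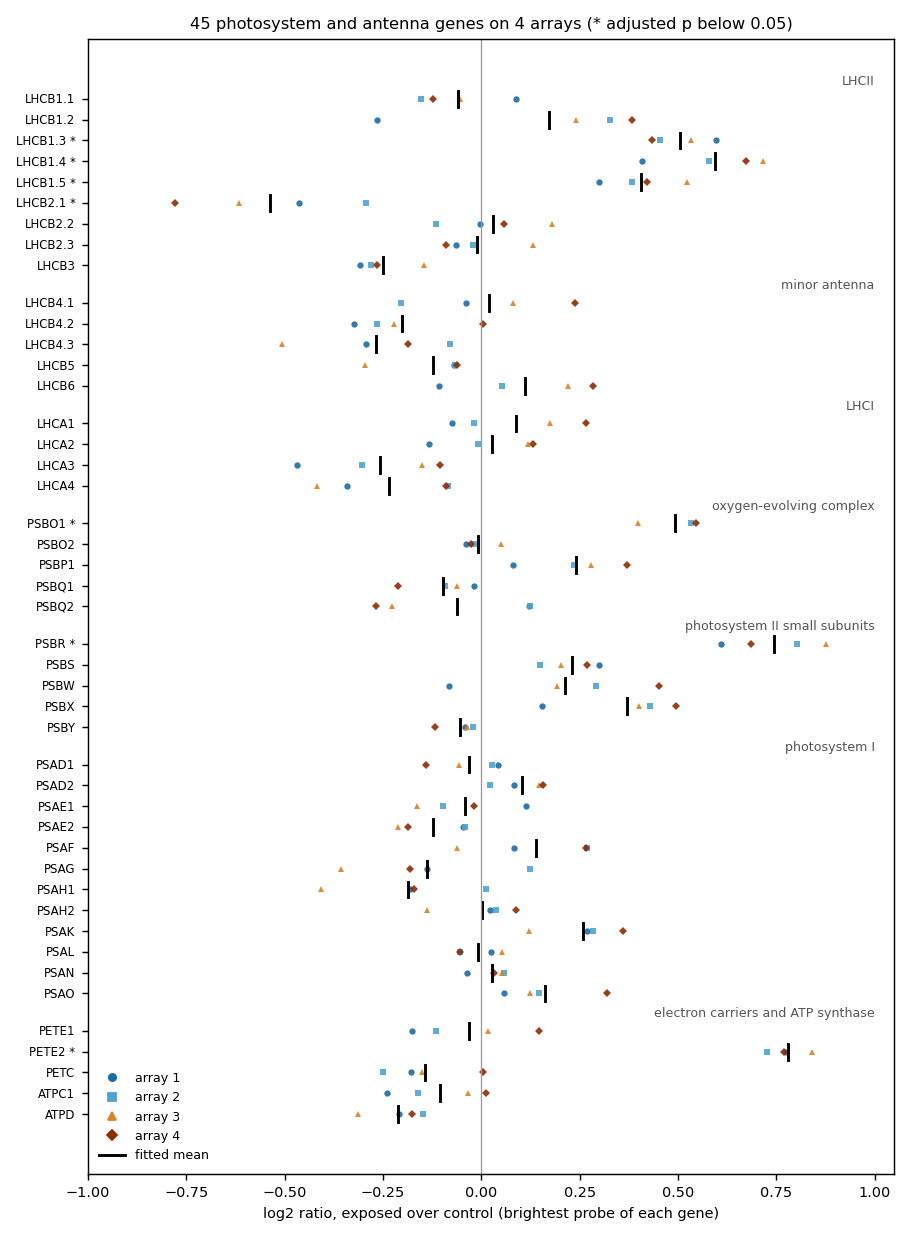
Log2 ratio of exposed over control plants (horizontal axis) for the 45 genes, grouped by role, with 1 symbol for each of the 4 arrays and a black bar at the fitted mean. Asterisks mark the 7 genes with an adjusted p under 0.05, of which LHCB2.1 alone lies left of 0.

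The LHCII genes held 4 of the 7 calls. In LHCB1.3 (AT1G29930, CAB1), which encodes an abundant LHCII protein, the log2 ratio was 0.60, 0.45, 0.53 and 0.43 on arrays 1 to 4. All 4 arrays lay on the same side of 0, and the mean was 0.50 ± 0.063 (SE, n = 4), a 1.42-fold rise with an adjusted p of 0.0234 by limma. Each SE here and below is limma's moderated SE, which draws on the spread of all tested genes as well as of these arrays. LHCB1.4 (AT2G34430) read 0.41, 0.58, 0.72 and 0.67, lowest on array 1. Its mean was 0.59 ± 0.074 (SE, n = 4), 1.51-fold, with an adjusted p of 0.0234 by limma. LHCB1.5 (AT2G34420) read 0.30, 0.38, 0.52 and 0.42, again lowest on array 1, for a mean of 0.41 ± 0.065 (SE, n = 4), 1.32-fold, and an adjusted p of 0.0369 by limma.

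The other copies of the LHCB1 family did not pass the test. LHCB1.2 read -0.26, 0.33, 0.24 and 0.38, with array 1 on the other side of 0 from the rest, for a mean of 0.17 (adjusted p of 0.39 by limma). LHCB1.1 read 0.088, -0.15, -0.053 and -0.12, and its mean was -0.060. In the gene table LHCB1.2, LHCB1.1 and LHCB1.3 lie next to each other on chromosome 1 with 0 genes between them, and LHCB1.5 and LHCB1.4 do so on chromosome 2. The probe letters were not used here, so signal from a near-identical neighbour cannot be told apart from that of the annotated gene in this family.

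LHCB2.1 (AT2G05100), whose protein forms LHCII trimers and is a target of the kinase of state transitions, read -0.46, -0.29, -0.62 and -0.78. It was lower on every array, most on array 4, with a mean of -0.54 ± 0.091 (SE, n = 4), 1.45-fold lower, and an adjusted p of 0.0397 by limma. The probe was dim: before normalization it read 499, 409, 514.5 and 599 units in control RNA and 375, 388, 339 and 816 in exposed RNA. On array 4 the unnormalized signal was thus higher in the exposed channel, and the negative ratio there follows from the correction for the brighter exposed channel of that array. The dimmest member probe, of PSAD1, read 126, 123, 121 and 757 units in exposed RNA. The 816 units of LHCB2.1 on array 4 were thus close to that dimmest reading, and so its value of -0.78 is uncertain. The other LHCB2.1 probe averaged -0.17. LHCB2.2, its neighbour on chromosome 2 with 0 genes between, had a mean of 0.029 at its brightest probe and -0.28, -0.27 and -0.38 at its 3 others, of which the last was called lower when each probe was tested on its own (adjusted p of 0.0416 by limma). LHCB2.3, the copy on chromosome 3, averaged -0.011. LHCB3, the LHCII protein not phosphorylated in state transitions, was negative on all arrays at -0.31, -0.28, -0.15 and -0.27, with a mean of -0.25 that missed the threshold (adjusted p of 0.0789 by limma).

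Among the minor antennae, which link LHCII to the photosystem II core, none of 5 genes was called and the median was -0.12. LHCB4.3 averaged -0.27, LHCB4.2 -0.20 and LHCB5 -0.12, while LHCB4.1 averaged 0.019 and LHCB6 0.11. None of the 4 LHCI genes, whose proteins form the belt of photosystem I, was called either. LHCA3 read -0.47, -0.30, -0.15 and -0.11, negative on every array, for a mean of -0.26 (adjusted p of 0.118 by limma). LHCA4 was negative at all 6 of its probes, and 1 of them was called lower on its own, with -0.39, -0.37, -0.32 and -0.39 on the 4 arrays and an adjusted p of 0.0384 by limma. LHCA1 averaged 0.087 and LHCA2 0.027.

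PSBO1 (AT5G66570) encodes the manganese-stabilizing protein of the oxygen-evolving complex. Its spot on array 1 was marked as an outlier by the scanner software and was left out, and arrays 2 to 4 read 0.53, 0.40 and 0.55. The mean was 0.49 ± 0.077 (SE, n = 3), 1.41-fold, with an adjusted p of 0.0418 by limma. Its paralog PSBO2 averaged -0.0085, with all arrays between -0.040 and 0.050. PSBP1, another extrinsic subunit of the complex, averaged 0.24 at its brightest probe (adjusted p of 0.105 by limma). Its 4 other probes averaged between -0.24 and -0.015. PSBQ1 averaged -0.096. The brightest PSBQ2 probe read 0.12 and 0.12 on arrays 1 and 2 and -0.23 and -0.27 on arrays 3 and 4. Its other probe read 0.071, 0.015, 0.27 and -0.026. PSBQ2 was the only member with an unadjusted p under 0.05 for the difference between slides in limma. That test called 0 genes after Benjamini-Hochberg adjustment and had 867 of all tested genes at an unadjusted p under 0.05.

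Of the small photosystem II subunits, PSBR (AT1G79040), which is needed for stable binding of the extrinsic proteins, read 0.61, 0.80, 0.88 and 0.68. Every array was well above 0, and the mean was 0.74 ± 0.070 (SE, n = 4), 1.67-fold, with an adjusted p of 0.0132 by limma. PSBX came next at 0.15, 0.43, 0.40 and 0.50, higher on all arrays but least on array 1, with a mean of 0.37 that missed the threshold (adjusted p of 0.0562 by limma). PSBS, the sensor protein of non-photochemical quenching, averaged 0.23 and PSBW 0.21, and PSBY averaged -0.054. The PSBS gene was read in opposite directions by its probes: the brighter read 0.30, 0.15, 0.20 and 0.27, and the dimmer read -0.27, -0.29, -0.46 and -0.48. The dimmer probe was called lower on its own (mean -0.37, adjusted p of 0.0468 by limma), and which transcripts each probe reads was not tested.

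None of the 12 photosystem I genes was called, and their median was -0.0026. The highest were PSAK at 0.26 (adjusted p of 0.0839 by limma), PSAO at 0.16 and PSAF at 0.14, and the lowest were PSAH1 at -0.19, PSAG at -0.14 and PSAE2 at -0.12. Of the paralogs, PSAD1 averaged -0.032 and PSAD2 0.10, PSAE1 averaged -0.042, and PSAH2 averaged 0.0027. PSAL averaged -0.0079 and PSAN 0.026. Under other settings PSAK was called higher without array 4 (0.22), with median centring (0.61) and with array weights (0.25), and PSAH1 was called lower without array 4 (-0.19). Members of the other groups that were not called above also passed under some other settings. PSBX did so in 4 settings, and LHCB3, LHCA4 and PSBP1 in 3. LHCB4.2, LHCB4.3, LHCA3, PSBS, PETC and ATPD did so in 2, and ATPC1 and PSBW in 1.

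Plastocyanin is the copper protein that carries electrons to photosystem I, and PETE2 (AT1G20340, DRT112) is its main copy in Arabidopsis. It gave the largest change of any member, at 0.77, 0.73, 0.84 and 0.77. The mean was 0.78 ± 0.060 (SE, n = 4), 1.72-fold, with an adjusted p of 0.0095 by limma. Before normalization the probe read 145954, 112461, 146420 and 129540 units in control RNA and 376859, 307879, 405001 and 422562 in exposed RNA. The minor copy PETE1 averaged -0.032, with arrays 1 and 2 negative and arrays 3 and 4 positive. The Rieske subunit gene PETC averaged -0.14, and the ATP synthase genes ATPC1 and ATPD averaged -0.11 and -0.21, none of them called.

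The 6 rises shared a property that the choice of genes did not use: all were read by very bright probes, with a mean log2 intensity of both channels between 17.2 and 17.8. A brightness of 17 was therefore used to divide the probes, a value picked after the pattern was seen. At or above it lay 19 member probes of 14 genes, with a median log2 ratio of 0.36 and 9 called higher (47.4%) when each probe was tested on its own, a fit that called 2.92% of all 31106 tested probes. The 69 other probes of that brightness, from 36 loci, had a median of 0.26 and 21 called higher (30.4%). Not all of these loci are unrelated to photosynthesis. They include the Rubisco small subunit genes and the chloroplast-encoded PSAB, PSBA, PSBZ, PETA, ATPB and ATPE, from lists given below. The medians of the 69 probes on arrays 1 to 4 were 0.16, 0.24, 0.33 and 0.36. Those of the member probes were 0.27, 0.33, 0.40 and 0.43. Both sets were thus above 0 on every array at this brightness, and whether the scale of the brightest spots had a part in the rises was not tested.

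**Figure D2:**
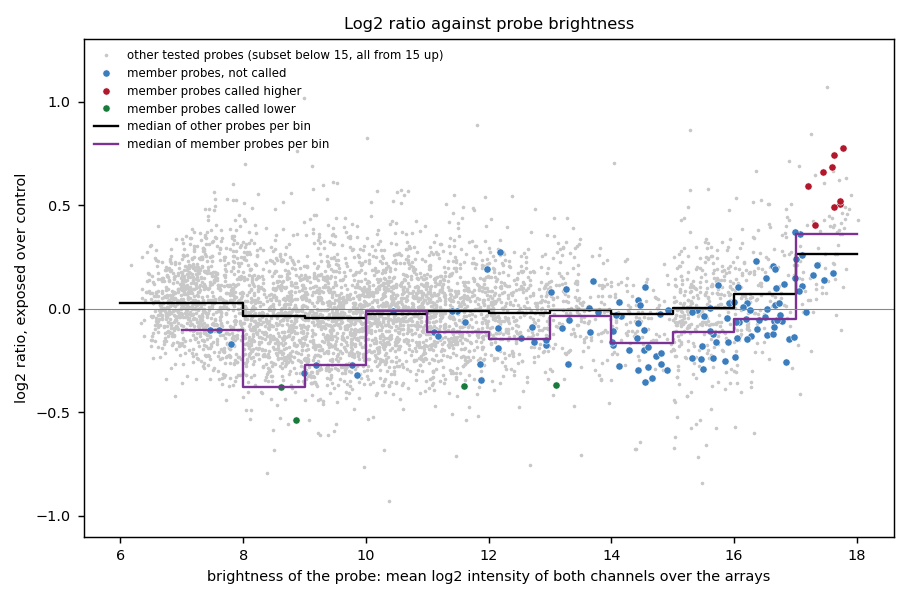
Log2 ratio (vertical axis) against brightness, the mean log2 intensity of both channels (horizontal axis), for 135 member probes and for other tested probes in grey, of which only a random subset is drawn below a brightness of 15. Red and green points are member probes called higher and lower, and steps give the medians per bin of 1 unit, which from 17 up are 0.36 for members and 0.26 for the others.

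Less bright probes of the same genes read lower. Of the 9 probes of LHCB1.3, the 3 brightest averaged 0.50, 0.52 and 0.68 and the other 6 between -0.18 and -0.0080. The brightest LHCB1.4 probe averaged 0.59 and the others -0.065, -0.32 and -0.31. LHCB1.5 gave 0.41 and 0.36 at its brightest probes and -0.13 and -0.14 at the others. The direction thus depended on the probe in all 3 LHCB1 genes that rose. PSBR gave 0.74 and 0.66 at its brightest pair and 0.099 and -0.0019 at the others. PSBO1 gave 0.49, 0.15 and -0.11 in order of brightness. PETE2 stayed above 0 at every probe, with 0.78 at the brightest and 0.12, 0.19 and 0.15 at the others. Whether the probes of a gene differ in the copies or transcript ends they read was not tested.

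**Figure D3:**
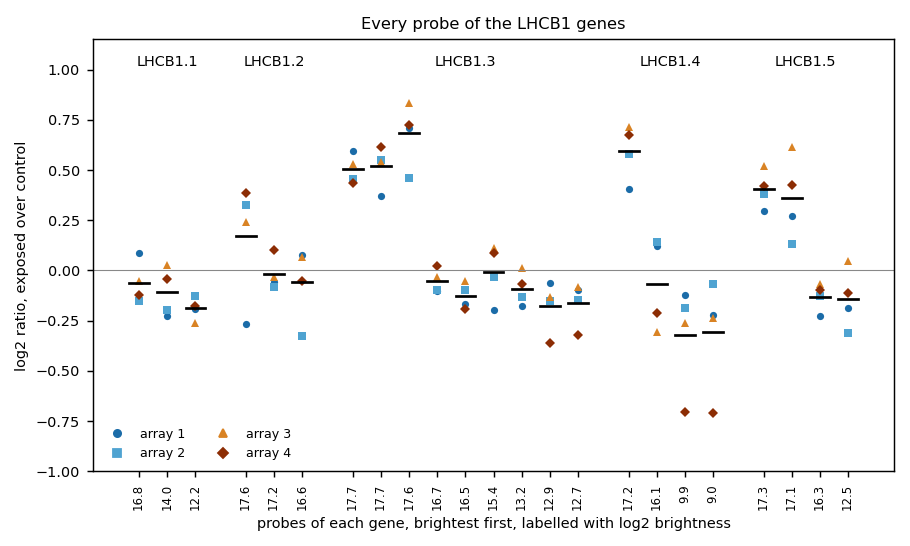
Log2 ratio of exposed over control (vertical axis) for every probe of the 5 LHCB1 genes, ordered within a gene from the brightest to the dimmest and labelled with log2 brightness. Symbols are the 4 arrays and black bars the means, and the means above 0.3 are all at probes of brightness 17 or more.

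Below that brightness the member probes lay mostly slightly under 0. Of 116 such probes of 43 genes, 89 were negative (76.7%), with a median of -0.099, while 53.3% of 30902 other probes were negative, with a median of -0.015. None of the 116 was called higher and 4 were called lower (3.45%, beside 1.63% of the others), namely those of LHCB2.1, LHCB2.2, LHCA4 and PSBS given above. Below a brightness of 16 the shares negative were 82.7% of 81 member probes and 53.4% of the others. The member medians there were -0.13, -0.11, -0.13 and -0.13 on arrays 1 to 4, below those of the other probes on each array (0.0011, 0.0026, -0.00080 and -0.088). Counted by gene, since probes of a gene share their target, 32 of 39 members had a negative median over these probes (82.1%), beside 52.3% of 22601 other genes. The lowest were PSBS at -0.37, LHCB2.1 at -0.35 and LHCB1.4 at -0.31, and the highest were LHCB6 at 0.19 and PSBY at 0.13. These are descriptions, since no test compares the members with other genes here. The probe values are those after loess, and the shares negative are not given for other settings.

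Probes of the same member often disagreed in sign. Of 37 members with several probes, all probes shared a sign in 14 (37.8%), beside 56.3% of 6495 genes with several tested probes. Members had more probes, 3.43 a gene on average beside 2.3. At equal numbers the shares were 45.5% of 11 members and 60.6% of other genes with 2 probes, 40% of 10 and 43.2% with 3, and 31.2% of 16 and 34.1% with 4 or more. Of the 14 members with a shared sign, PETE2 and PSBW were positive throughout, and 12 were negative throughout: LHCA3, LHCA4, LHCB1.1, LHCB2.1, LHCB2.3, LHCB3, LHCB4.2, LHCB5, PSBO2, PSBQ1, PETC and ATPC1. Among these 12, LHCB2.1 alone passed the test at its brightest probe. These signs are those of the reported processing. Over all settings the highest gene value was above 0 for LHCA3 (0.071), LHCA4 (0.028), LHCB1.1 (0.26) and LHCB2.3 (0.015). It was also above 0 for LHCB5 (0.19), PSBO2 (0.27), PSBQ1 (0.19), PETC (0.12) and ATPC1 (0.12). LHCB2.1, LHCB3 and LHCB4.2 stayed below 0 in every setting, and PSBW reached -0.060.

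Brightness is tied to how the spots were scanned. The scanner read each slide at a higher and a lower gain and marked the spots whose value was scaled up from the lower-gain scan. In both channels of all arrays this mark was on 81 of the 135 member probes, and 36 had it nowhere. Among brightest probes it was on 41 of the 45 members on at least 1 array, beside 1015 of all 22690 tested genes. In an alternative added after seeing the data, genes were read by their brightest unmarked probe. Then 26 members could be tested, their median was -0.11, 0 were called higher and 2 lower (LHCB2.1 at -0.54 and LHCA4 at -0.37), and LHCB1.3, LHCB1.4 and LHCB1.5 turned to -0.091, -0.32 and -0.14. PETE2, PSBR and PSBO1 have no unmarked probe. In another added alternative, the median of the other probes of like brightness was subtracted on each array, after which PETE2 rose by 0.50, PSBR by 0.47 and LHCB1.4 by 0.32, all still called, as was LHCB2.1. LHCB1.3 (0.23), LHCB1.5 (0.13) and PSBO1 (0.18) were then no longer called. From a brightness of 17 up, the subtracted median rests on the 36 loci given above, Rubisco and chloroplast-encoded photosynthesis genes among them.

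The balance of the calls differed between ways of processing the arrays. The counts here are of members alone and were not set beside the share called over all genes. With each array centred on its median in place of loess, which corrects ratios along brightness, 10 members were called, all higher, and the median of the set was 0.26. With the scanner software's own log ratio 2 were called higher and 2 lower, and the median was -0.090. With the mean of the probes of a gene only PETE2 (0.31) and PSBR (0.38) were called, and LHCB1.4 turned to -0.025. PETE2 and PSBR were positive under all of the 16 settings that could read them and called in 11, and LHCB2.1 was negative under all of its 17 and called in 9.

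**Figure D4:**
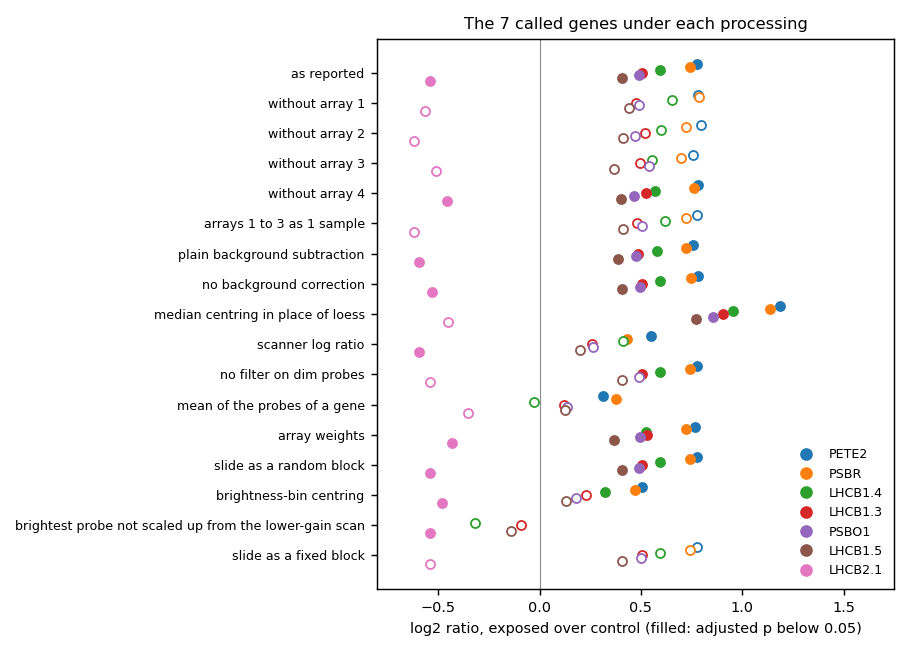
Log2 ratio of exposed over control (horizontal axis) for the 7 called genes under the reported processing and each alternative (vertical axis), filled where the adjusted p was under 0.05. PETE2 and PSBR stay right of 0 and LHCB2.1 left of 0 wherever they are drawn, while LHCB1.4 reaches -0.32.

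Other genes of the pathway were read from lists, whose calls were all lost too when array 1, 2 or 3 was left out, when arrays 1 to 3 counted as 1 sample and when slide was fitted as a fixed block. In chlorophyll synthesis, 1 of 22 tested genes fell and 0 rose, with 19 negative and a median of -0.13, and the gene that fell was DVR, the divinyl reductase (-0.38, adjusted p of 0.0425 by limma). Among 10 other light-harvesting-like proteins all were negative and LHCA6, a linker between photosystem I and the NDH complex, fell (-0.44, adjusted p of 0.0303 by limma). None of 14 light and plastid regulators was called; the lowest p-values were those of the photoreceptor gene PHYA (-0.28) and of GLK1 (-0.23), an activator of antenna genes. Its paralog GLK2 averaged 0.28, in the opposite direction at a similar unadjusted p (0.0144, beside 0.013 for GLK1, both from limma), and 10 of the 14 regulators were negative and 4 positive. None of 13 genes of thylakoid electron transport and its control was called, where STN7, the kinase of state transitions, averaged -0.27 and FNR1, a ferredoxin-NADP reductase, -0.31. Of these 13, 9 were negative and 4 positive, with FD2 highest at 0.16 and a list median of -0.095. Of 4 genes for the insertion of light-harvesting proteins, none was called, with CPSRP43 at -0.21, ALB3 at -0.15, CPSRP54 at 0.12 and CPFTSY at 0.13. With median centring 0 genes of these lists were called, so the DVR and LHCA6 calls were lost. The medians were then -0.041 for chlorophyll synthesis, -0.11 for light-harvesting-like proteins and -0.081 for regulators. They were 0.040 for electron transport and 0.017 for insertion. The DVR call was also lost with no filter on dim probes.

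Chloroplast-encoded partners of the same complexes formed another list. Of 29 listed, 18 were tested, 7 fell and 0 rose, with a median of -0.21. Those that fell were PSAA (-0.47) of photosystem I, PSBB (-0.45), PSBC (-0.38) and PSBH (-0.36) of photosystem II, PETB (-0.57) of cytochrome b6f, and ATPB (-0.41) and ATPF (-0.42) of ATP synthase. With median centring 0 were called lower and 2 higher, and the list median was -0.029. Plastid transcripts carry few poly(A) tails, and the labels give a T-rich primer, so that their level here is read through priming that was not tested. The nuclear gene family for the small subunit of Rubisco, the enzyme that fixes carbon dioxide, had 3 of 4 members higher: RBCS1A (0.49), RBCS2B (0.55) and RBCS3B (0.48), all at probes above a brightness of 17. None of these 4 was called after subtraction of the median of like-bright probes. Their own probes are among those like-bright probes, so part of their own values was subtracted and the loss of the calls decides nothing.

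**Figure D5:**
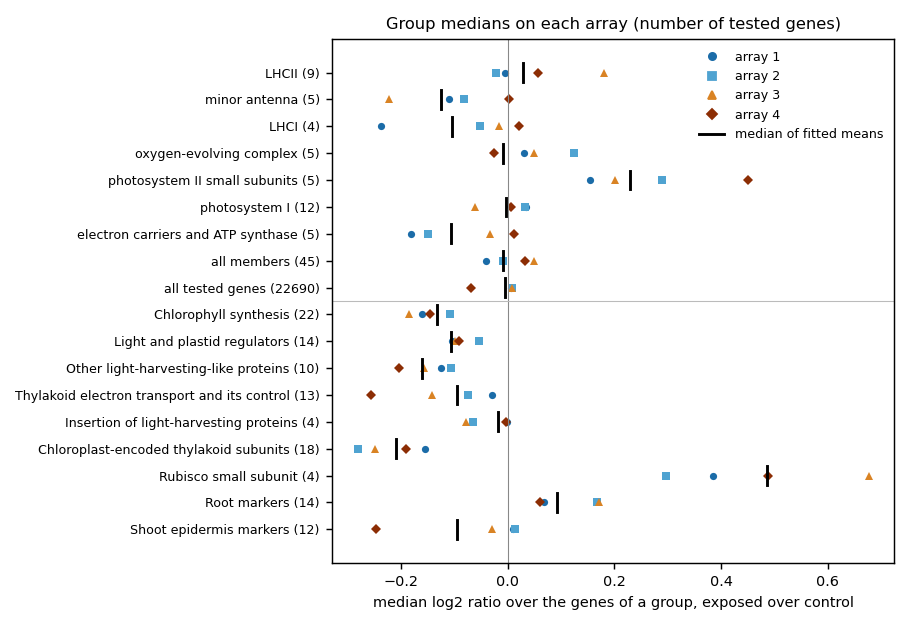
Median log2 ratio of exposed over control (horizontal axis) over the genes of each group on each of the 4 arrays (symbols), with the median of the fitted means as a black bar. Groups above the line are the members by role and all tested genes, and groups below it are the other lists, with the Rubisco small subunit highest at 0.49 and the chloroplast-encoded subunits lowest at -0.21.

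Markers of plant organs were set beside these values. Of 14 root markers 2 rose, PYK10 (0.61) and PRP3 (0.44), while 8 were positive and 6 negative. Of those not called, the highest were COBL9 (0.57), CASP2 (0.34) and CASP1 (0.27), and the lowest WER (-0.36), PIN2 (-0.31) and RHD6 (-0.23). The list median was 0.093, from 0.061 to 0.17 on single arrays, and -0.0011 with the scanner log ratio. Of 12 markers of shoot epidermis, stomata and leaf polarity 1 fell, AS1 (-0.49), a call that was lost with median centring and with no filter on dim probes. Of the 12, 9 were negative and 3 positive, namely MUTE (0.24), YAB3 (0.23) and FIL (0.12). The lowest not called was KAN1 (-0.33). The list median was -0.095, from -0.25 on array 4 to 0.015 on array 2. PYK10 was read at a brightness of 17.5. The part of a changed share of shoot and root in the antenna values was not tested.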

How the data were processed

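The deposited scanner files give spot intensity on a linear scale, extracted by the authors with Agilent Feature Extraction (version 11.5.1.1 per the file headers, 8.5.1.1 per the submitters' processing notes), with local background and quality marks. The deposited log10 ratio of Cy5 over Cy3 (per the file headers) served as an alternative, converted to log2. The deposited log2 values of the series matrix equalled the scanner's processed ratio for array 1 at 45220 spots but for arrays 2 to 4 at 4, 0 and 0 spots. They were not used, and their scale, centring and direction stay unknown for those arrays (medians -0.042, -3.17, -3.17 and -3.19).

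Median intensities were background-corrected with normexp (offset 50), normalized by loess within each array, and tested with limma 3.58.1 in R 4.3.3 (lmFit, eBayes, log2 ratio against 0, two-sided, Benjamini-Hochberg over 22690 genes, threshold 0.05). Outlier spots were left out. The SE given with a mean is the moderated SE of limma. A probe was tested when at least 3 of the 4 arrays marked it as well above background in 1 and the same channel, and the brightest tested probe represented a gene. The number of arrays limits the precision. Gene names come from a gene table of another annotation than the headers', so no coordinates are given. No sequences were available for use here, and promoter motifs were not analysed here. Members and lists were chosen with earlier results of these data known. The genes given in full are the called members, and from each list the called genes or the 2 with the lowest p are named. Of the members whose probes disagree in sign, only some are given probe by probe. The others are given by their brightest probe. Of the markers, called genes are named. COBL9, CASP2, CASP1, WER, PIN2, RHD6, MUTE, YAB3, FIL, KAN1, FD2, GLK2, CPSRP54 and CPFTSY were named after their values were seen. So were the chloroplast-encoded PSAB, PSBA, PSBZ, PETA and ATPE.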

Additional observations from a re-analysis of the deposited data

Results flagged for a closer look

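LHCB5, a minor antenna gene, read -0.296 on array 3, while the other 3 arrays lay close together, the nearest at -0.071. The gap to that array was 0.966 of the whole range, which is above Dixon's critical value for 4 samples. It was the only such case among 44 members with values on all 4 arrays, and chance alone marks about 1 in 20 groups. The other LHCB5 probes read -0.073 and -0.25 on that array.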

How the results depend on the processing

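The reported processing called 7 members and 772 genes. Leaving out each array in turn gave 0 to 19 members, 0 to 7054 genes and member medians of -0.0078 to 0.0063. Without array 1, 2 or 3 no gene was called by limma (3580, 3873 and 3494 at an unadjusted p under 0.05, members 13, 16 and 12). With arrays 1 to 3 as 1 sample 0 members and 0 genes were called (1317 and 8 at an unadjusted p under 0.05). Array weights gave 19 members and 8031 genes. No filter on dim probes gave 4 members and 292 genes, median centring 216 genes with a member median of 0.26, and the scanner log ratio 4 members with a median of -0.090. The mean of the probes of a gene gave 2 members, with LHCB1.4 at -0.025. Of the settings added after seeing the data, subtracting the median of like-bright probes gave 4 members, 1242 genes and a median of -0.11. The brightest probe not scaled up from the lower-gain scan gave 2 members and a median of -0.11, with LHCB1.3 at -0.091, LHCB1.4 at -0.32 and LHCB1.5 at -0.14. Slide as a fixed block gave 0 members and 16 genes, with 17 members at an unadjusted p under 0.05. Plain background subtraction, no background correction and slide as a random block gave 7, 8 and 7 members. Where no count of all genes is given for a setting, its member count cannot be set beside a share of all tested genes. The cause of these differences was not tested. Leaving out or averaging arrays reduces the samples. Leaving out 1 array gave 0 called genes for array 1, 2 or 3 but 7054 for array 4. No paired analysis was possible because the 4 arrays form 1 group in which each ratio already sets control beside exposed RNA.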
